A study of Mus musculus with 8 samples.

Results

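The comparison described here set bone marrow cells labelled Id2-GFP- pre-CD8 against cells labelled Id2-GFP- CDP, on 2 arrays each, which makes 4 of the 8 arrays of the series. The members were chosen by sample title. The other 4 arrays, from Id2-GFP+ cells of either stage with 2 for each, hold the same stage step in cells that carried the reporter signal, and share no array with the comparison. All 8 samples were mouse cells sorted from bone marrow, and total RNA of picogram to nanogram amounts was amplified and hybridised to Affymetrix arrays. By source and description, every sample came from a reporter mouse in which GFP is expressed from the Id2 locus through an internal ribosome entry site (Id2-IRES-GFP). The genotype field differed from this. It gave heterozygous Id2-IRES-GFP for both Id2-GFP- CDP samples and heterozygous Zbtb46-GFP for both Id2-GFP- pre-CD8 samples and for all 4 Id2-GFP+ samples. Stage and this genotype entry therefore cannot be told apart in the comparison. The entry was the same at both stages of Id2-GFP+ cells. A stage difference that differs between the reporter classes therefore cannot be told apart from the entry either. No age, number of mice or surface gate was stated in the sources used here, and the labels do not say that arrays of a group came from separate mice. The p-values measure only the spread between arrays, which may be technical.

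The common dendritic cell progenitor (CDP) is a bone marrow progenitor that gives rise to conventional and plasmacytoid dendritic cells. The pre-CD8 cell is the precursor committed to the conventional dendritic cell of type 1 (cDC1), the lineage that takes up dead cells through Clec9a and cross-presents antigen to CD8 T cells. Id2 is an inhibitor of E proteins, the helix-loop-helix transcription factors that drive lymphoid and plasmacytoid dendritic cell genes by binding E-box motifs. E proteins are best known in lymphoid progenitors for activating the recombination genes, and Id2 is induced as cDC1 commitment proceeds. The cells described here carried the pre-CD8 label without the reporter signal.

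The arrays were alike in their middle and differed in spread. Within each group 1 array was brighter than the other, with a mean intensity of 460.7 to 477.9 on the 4 brighter arrays against 401.6 to 413.8 on the 4 dimmer ones, while the log2 median ranged from 6.12 to 6.27 over the 8 arrays. In both Id2-GFP- groups array 1 (the replicate number of the labels) was the brighter one, so the brighter arrays and the dimmer arrays each form a pair with 1 array of each stage. This array set was read from the intensities and is not stated in the labels. Where a fit with this array set as a block (the set block) changed a call, its adjusted p is given too. Such a p rests on a grouping made from the data. Named genes whose call was lost with the replicate number as a block (the replicate block) are listed in the section on processing. Values below are log2 intensities on a scale where 1 unit is a doubling, given for array 1 and then array 2. A gene is said to have risen or fallen only where limma's moderated test, fitted to all 8 arrays, gave a Benjamini-Hochberg adjusted p under 0.05 over 19938 genes. Errors after ± are standard errors of that fit.

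The reporter and marker genes were examined first. Id2 itself read 5.14 and 6.30 in Id2-GFP- CDP and 5.90 and 7.18 in Id2-GFP- pre-CD8, and the groups overlapped (difference 0.82 ± 0.49, adjusted p = 0.865). All 4 Id2-GFP+ arrays lay higher, at 9.26 to 9.77 in CDP and 10.7 to 11.0 in pre-CD8, so the transcript followed the reporter label. Zbtb46, a transcription factor of the conventional dendritic cell lineage, read 5.48 and 6.13 in Id2-GFP- CDP and 5.50 and 6.12 in Id2-GFP- pre-CD8, a difference of -0.003 ± 0.29.

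The defining markers of the pre-CD8 stage mostly did not pass the test in Id2-GFP- cells. Of 8 markers fixed for it (Zbtb46, Irf8, Batf3, Clec9a, Cd24a, Itgax, Id2 and Btla), none rose and 1 fell, with a median of 0.04; with the set block Cd24a rose and Clec9a and Irf8 fell. The one that fell in both fits was Clec9a, the dead-cell receptor of cDC1 and their progenitors, which read 8.92 and 9.65 in CDP and 5.47 and 6.28 in pre-CD8. Both pre-CD8 arrays lay below both CDP arrays, and Clec9a fell by 3.41 ± 0.40 (10.6-fold, adjusted p = 0.00638), and the call was lost without CDP array 2 (adjusted p = 0.0592). Irf8, the factor that specifies the lineage, was at 12.4 and 12.8 against 11.5 and 12.1 and did not pass (-0.81 ± 0.22, adjusted p = 0.166; 0.00366 with the set block), and Batf3, which maintains Irf8 in cDC1, read 6.94 and 7.02 against 6.89 and 7.24 (0.09 ± 0.23). The summed intensity of the 8 markers was 10531 to 12271 in Id2-GFP- CDP and 7989 to 9492 in Id2-GFP- pre-CD8, where Id2-GFP+ pre-CD8 gave 18457 to 21883, and no marker was at 0. The cells are therefore called below by their label, Id2-GFP- pre-CD8, without the cell type that the stage name implies.

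Of the 8 genes listed for CDP, 1 rose and 1 fell. The riser is a gene of lymphoid progenitors, so its rise is not read as a gain of CDP identity. Il7r, the interleukin-7 receptor alpha chain of lymphoid progenitors, rose, and Csf1r, the macrophage colony-stimulating factor receptor, fell by 1.94 ± 0.23 from 11.1 and 11.0 to 9.30 and 8.90 (adjusted p = 0.00663, lost without either CDP array, up to 0.0615). Flt3, the receptor whose ligand drives dendritic cell development, read 11.7 and 11.4 against 12.6 and 12.2 and did not pass (0.83 ± 0.26, adjusted p = 0.247; 0.000102 with the set block). Kit, the stem cell factor receptor, was at 10.8 and 9.73 against 11.5 and 10.4, with overlapping groups (adjusted p = 1). Within the array pairs Kit differed by 0.65 and 0.70, and with the set block it rose (adjusted p = 0.000329).

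**Figure D1:**
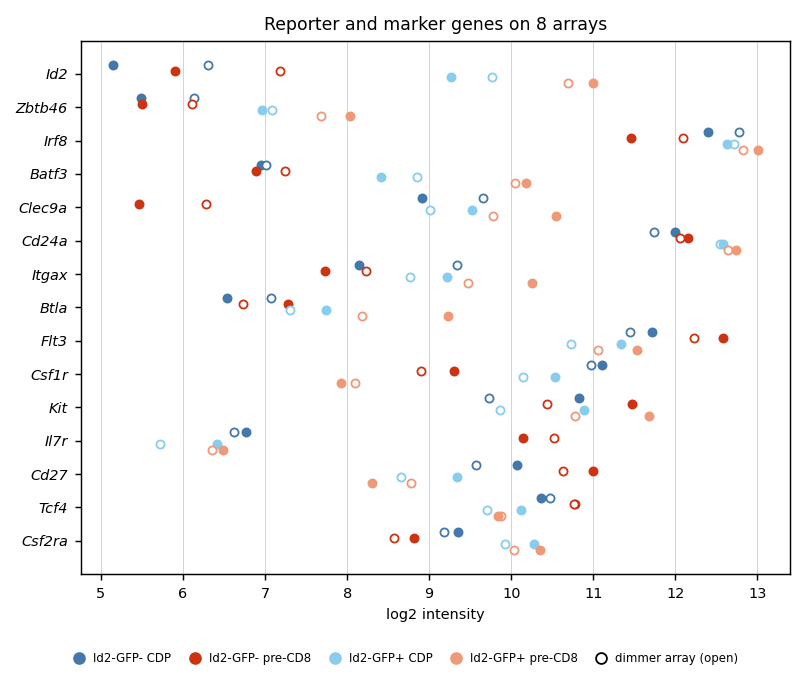
Log2 intensity of Id2, Zbtb46 and the markers fixed for pre-CD8 and CDP on all 8 arrays, 1 point per array, filled for the brighter and open for the dimmer array of each group. In Id2-GFP- cells Clec9a was at 8.92 and 9.65 in CDP and 5.47 and 6.28 in pre-CD8, while Il7r went the other way and Zbtb46 read nearly the same at both stages.

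Across the 19938 genes tested, 206 rose (1.03%) and 118 fell (0.592%) from Id2-GFP- CDP to Id2-GFP- pre-CD8, and 1833 had an unadjusted p under 0.05. The risers had a median difference of 1.79, from 0.84 to 4.64, and the fallers a median of -1.42, from -3.63 to -0.64. With the array set (brighter or dimmer) as a block, 1161 genes rose (5.82%) and 1325 fell (6.65%), and all 324 genes called without the block were among them. With the replicate number of the labels as a block instead, 110 rose and 47 fell. The share of calls that rose differed between fits. It was 63.58% in the fit without a block, 46.7% with the block and 47.97% after quantile normalization, where 401 rose and 435 fell. The counts also depended on single arrays: without CDP array 1 they were 70 and 34, without CDP array 2 66 and 11, without pre-CD8 array 1 101 and 42, and without pre-CD8 array 2 113 and 29. A core of 61 genes, 52 risers and 9 fallers, kept its call without each of the 8 arrays in turn.

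The pairing of brighter with brighter and dimmer with dimmer arrays gave 2 differences per gene in which the array set cancels. In all, 31.7% of genes were higher in pre-CD8 in both pairs and 34.4% were lower in both, which is the background for any count of members that went one way in both pairs. All 324 called genes had groups without overlap, so their same sign in both pairs was fixed by this and adds no support. The median over all genes was -0.015 in the brighter pair and 0.005 in the dimmer pair.

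**Figure D2:**
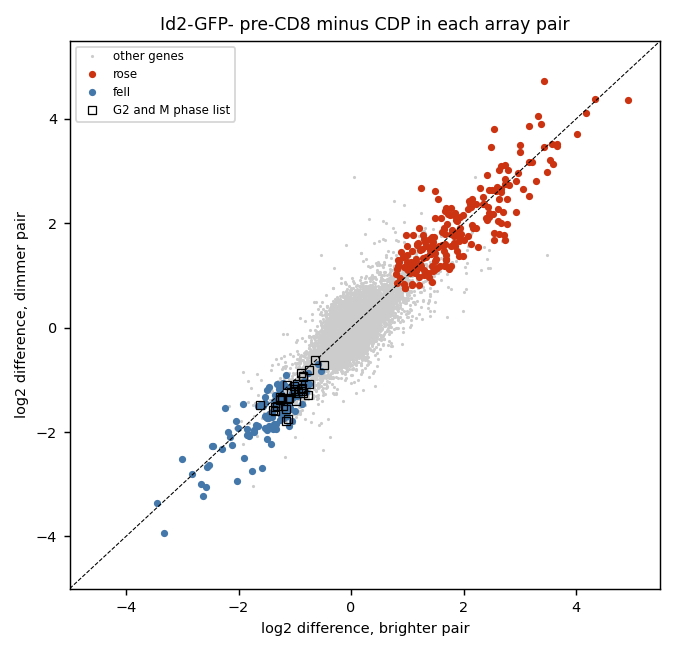
Log2 difference of Id2-GFP- pre-CD8 minus Id2-GFP- CDP for each of 19938 genes in the pair of brighter arrays (x axis) and the pair of dimmer arrays (y axis), with called genes in colour and members of the G2 and M phase list outlined. The called genes lay near the line of equal difference, which a call for little spread within groups favours. All 35 outlined members lay below 0 in both pairs.

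The genes that rose most included the lymphoid recombination machinery. Of 16 lymphoid recombination and early lymphoid genes measured, 6 rose and none fell, with a median of 0.89 beside -0.005 over all genes; with the set block 11 rose. Rag1, a subunit of the recombinase that cuts antigen receptor genes, read 5.16 and 4.76 in CDP and 8.58 and 9.50 in pre-CD8, and the groups lay far apart (4.08 ± 0.32, 16.9-fold, adjusted p = 0.00126). Rag2, its partner subunit and chromosomal neighbour, read 4.97 and 4.85 in CDP and 7.70 and 7.61 in pre-CD8, a rise of 2.74 ± 0.14 (6.69-fold, adjusted p = 0.000212). Both recombinase genes were thus near the low end of the scale in CDP and well above it on both pre-CD8 arrays. Dntt, the terminal transferase that adds untemplated bases at the joins, was already measurable in CDP at 7.83 and 8.37 and stood at 11.9 and 12.1 in pre-CD8 (3.86 ± 0.47, adjusted p = 0.00732; 0.0575 without CDP array 1). Il7r read 6.77 and 6.62 in CDP and 10.1 and 10.5 in pre-CD8 (3.64 ± 0.26, 12.4-fold, adjusted p = 0.00117). Ebf1, a transcription factor of the early B lineage, read 4.90 and 4.25 in CDP and 7.44 and 8.06 in pre-CD8 (3.18 ± 0.33, adjusted p = 0.00396).

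The sixth riser of the list was Ets1 at 1.95 (adjusted p = 0.038), a factor of lymphoid cells, whose call was lost without any Id2-GFP- array or either Id2-GFP+ pre-CD8 array. The members that did not pass included Ly6d, a surface marker of lymphoid progenitors with B cell potential, at 6.16 and 7.37 against 8.36 and 10.3 (2.54 ± 0.61, adjusted p = 0.107). Pax5, the factor that commits cells to the B lineage, read 5.55 and 5.54 against 6.12 and 6.81 (0.92 ± 0.25, adjusted p = 0.151). Both genes were higher on both pre-CD8 arrays. Within the array pairs Ly6d differed by 2.20 and 2.88 and Pax5 by 0.58 and 1.27, and with the set block both rose (adjusted p = 0.000159 and 0.00564). In all, 14 of the 16 genes were higher in both array pairs.

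The 250 bases before the annotated start of 4 of these risers are shown because E proteins, the targets of Id2, bind E-boxes. The sequences are RefSeq's for build GRCm38.p6, printed on the strand of the gene with the last base next to the start, and capitals mark the E-box letters CAGCTG or CAGGTG on either strand (CAGGTG reads CACCTG on the other). Rag1 lies at chr2:101649533-101649782 on the minus strand, Rag2 at chr2:101624462-101624711 on the plus strand, Dntt at chr19:41029025-41029274 on the plus strand and Il7r at chr15:9529877-9530126 on the minus strand.
Rag1: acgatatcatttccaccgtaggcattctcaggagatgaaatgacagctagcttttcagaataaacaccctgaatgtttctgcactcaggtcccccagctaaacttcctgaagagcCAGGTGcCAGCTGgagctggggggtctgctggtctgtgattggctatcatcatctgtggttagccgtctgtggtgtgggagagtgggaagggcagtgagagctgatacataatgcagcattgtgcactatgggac
Rag2: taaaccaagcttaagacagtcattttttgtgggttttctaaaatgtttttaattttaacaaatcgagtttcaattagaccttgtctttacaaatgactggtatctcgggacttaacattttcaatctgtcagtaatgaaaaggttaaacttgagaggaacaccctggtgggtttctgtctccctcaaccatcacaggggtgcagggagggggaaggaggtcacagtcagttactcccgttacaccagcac
Dntt: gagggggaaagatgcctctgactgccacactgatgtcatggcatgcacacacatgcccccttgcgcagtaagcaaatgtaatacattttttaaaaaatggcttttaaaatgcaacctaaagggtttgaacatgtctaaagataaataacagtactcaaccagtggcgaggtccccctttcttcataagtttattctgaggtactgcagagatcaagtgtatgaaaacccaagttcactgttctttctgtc
Il7r: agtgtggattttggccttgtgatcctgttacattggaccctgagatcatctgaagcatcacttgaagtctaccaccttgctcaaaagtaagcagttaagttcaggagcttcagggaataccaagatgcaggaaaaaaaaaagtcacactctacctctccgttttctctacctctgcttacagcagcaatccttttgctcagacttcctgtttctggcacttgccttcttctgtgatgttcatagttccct
Rag1 held 1 CAGGTG and 1 CAGCTG, starting 135 and 128 bases before the start, and the windows of the other 3 held neither string of letters. Of 32851 promoter windows of this length, 13% held CAGCTG, 17.2% held CAGGTG and 27.7% held either. Other forms of the E-box were not marked or counted, so a window without capitals may still hold one. A match describes letters in the window and not binding. The part of Id2 or E proteins in these rises was not tested.

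Genes of the B lineage rose in part. Of 15 measured, 4 rose and none fell, with a median of 0.38, and with the set block 6 rose. Besides Ebf1 these were Bank1, a scaffold of B cell receptor signalling, from 5.35 and 5.67 to 7.88 and 7.84 (2.35 ± 0.20, adjusted p = 0.00169), Cd72, a B cell coreceptor, from 7.34 and 7.76 to 9.42 and 9.52 (1.92 ± 0.21, adjusted p = 0.00528), and Blk, a B lineage Src kinase (1.37 ± 0.22, adjusted p = 0.0237). Blk lost its call without either CDP array or pre-CD8 array 2 (up to 0.199). Mature B cell genes such as Ms4a1 (0.06), Cd79b (-0.19), Cr2 (0.05) and Pou2af1 (0.10) did not pass, each with an adjusted p of 1. The summed intensity of the 15 genes was 1338 to 1565 in Id2-GFP- CDP and 2275 to 2682 in Id2-GFP- pre-CD8, beside 2992 to 3140 in Id2-GFP+ pre-CD8, and no member was at 0. Whether cells of the B lineage in the sort contributed to these genes was not tested. Fewer or more cells of a type and less or more RNA per cell cannot be told apart in such bulk samples, here and in every list below.

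None of 18 T cell, NK cell and innate lymphoid genes passed, with a median of 0.24 and 4 risers with the set block. Nkg7, of cytotoxic granules, came closest at 8.20 and 8.06 against 9.47 and 9.72 (1.47 ± 0.32, adjusted p = 0.0815; 0.00337 with the set block). Gata3, a T and innate lymphoid factor, read 5.27 and 5.70 against 6.39 and 7.16 (1.29 ± 0.31, adjusted p = 0.105; 0.00164 with the set block), while Cd3e (0.10) and Cd3g (0.07) had an adjusted p of 1. The list's summed intensity was 1180 to 1777 in Id2-GFP- CDP and 1964 to 2931 in Id2-GFP- pre-CD8. Both Id2-GFP+ groups lay higher, at 3211 to 3387 in CDP and 4239 to 5291 in pre-CD8.

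Adaptors of lymphocyte receptors gave some of the clearest differences. Lax1, a transmembrane adaptor of T and B cells, had the largest rise of all named genes, from 5.46 and 5.60 in CDP to 10.4 and 9.96 in pre-CD8 (4.64 ± 0.24, 24.9-fold, adjusted p = 0.000212). Lat, the linker that couples the T cell receptor to its signalling enzymes, read 6.46 and 6.58 in CDP and 9.46 and 9.95 in pre-CD8 (3.18 ± 0.22, adjusted p = 0.00113). Both genes kept their call without each array in turn. Of 18 listed adaptors and kinases, 3 rose (Lat, Blnk and Blk) and none fell, with a median of 0.45; with the set block 7 rose and 1 fell. Blnk, the B cell linker, read 6.85 and 7.52 against 9.58 and 10.4 (2.79 ± 0.34, adjusted p = 0.00804). It lost its call without CDP array 1 (0.0575), where 1 of the 18 remained called.

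Myl10, a myosin light chain first known from lymphocyte precursors, rose from 7.56 and 7.36 to 11.9 and 11.7 (4.37 ± 0.32, 20.6-fold, adjusted p = 0.00117). Tox, a nuclear factor of developing T cells and innate lymphoid cells, went from 6.47 and 5.88 to 9.47 and 9.39 (3.25 ± 0.34, adjusted p = 0.00393). Cmah, the enzyme that makes the glycolyl form of sialic acid, went from 7.22 and 7.85 to 10.8 and 11.0 (3.37 ± 0.27, adjusted p = 0.00126). Ctla2a, which encodes a cathepsin inhibitor, went from 7.22 and 7.18 to 10.9 and 10.7 (3.57 ± 0.36, 11.9-fold, adjusted p = 0.00352). It has a close copy in Ctla2b, whose transcript its probes may take up. The 4 genes were named for a large difference between groups without overlap, so a wide gap between their arrays follows from the choice and adds no support. In each of the 4 genes both pre-CD8 arrays lay at least 1 unit above both CDP arrays, and none lost its call without any single array.

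**Figure D3:**
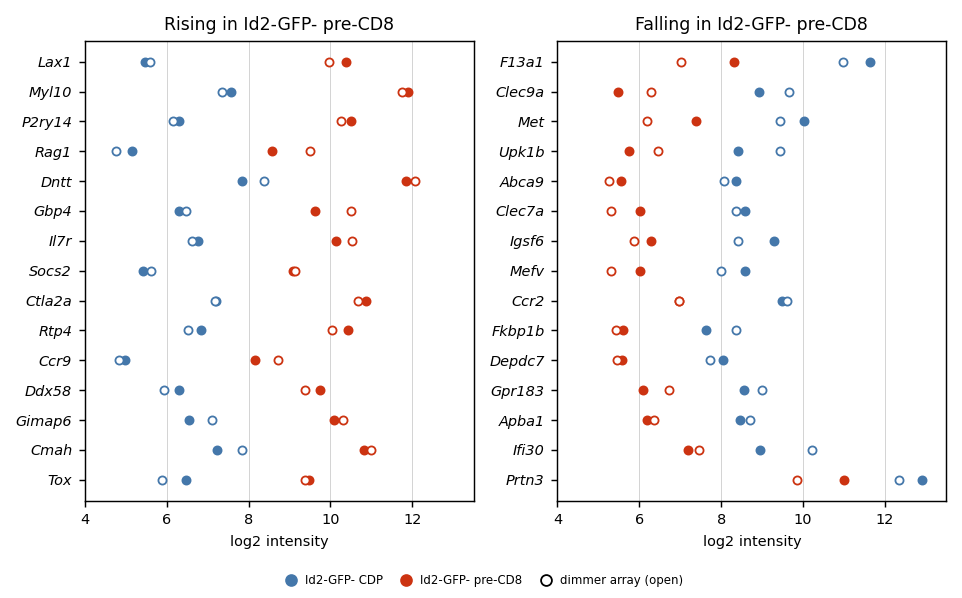
Log2 intensity on the 4 Id2-GFP- arrays of the 15 risers (left) and 15 fallers (right) with the largest difference under the naming rule, filled for the brighter and open for the dimmer array. The naming rule took only genes whose groups did not overlap, so the gap between CDP and pre-CD8 points follows from the choice. Lax1 went from 5.46 and 5.60 to 10.4 and 9.96, and F13a1 from 11.6 and 11.0 to 8.31 and 7.03.

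The Gimap GTPases, encoded side by side in one cluster and known for lymphocyte survival, rose nearly as a whole. Of 8 measured, 7 rose and none fell, with a median of 2.42, and 8 of 8 were higher in both array pairs. Gimap6 read 6.54 and 7.10 in CDP and 10.1 and 10.3 in pre-CD8 (3.38 ± 0.24, adjusted p = 0.00117), and Gimap5 read 4.65 and 5.04 against 7.61 and 8.004 (2.97 ± 0.31, adjusted p = 0.00396). Gimap1 went from 7.20 and 7.01 to 9.49 and 9.70 (2.49 ± 0.22, adjusted p = 0.0017). The smallest called difference was that of Gimap8 (1.01), and Gimap3 was the member that did not pass (0.34, adjusted p = 0.603). Without CDP array 1, CDP array 2, pre-CD8 array 1 and pre-CD8 array 2 the list had 3, 4, 5 and 4 risers; Gimap6, Gimap1 and Gimap5 kept their call each time. Members of this family, like those of the Gbp, Ifi200 and Ms4a families below, are close in sequence and their probes may take up each other's transcripts.

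Genes of the interferon response rose as a minority of their list. Of 20 measured, 5 rose and none fell, with a median of 0.97; 17 were higher in both pairs, and with the set block 15 rose and 1 fell. Rtp4, an interferon-induced chaperone of receptors, read 6.84 and 6.51 in CDP and 10.4 and 10.0 in pre-CD8 (3.55 ± 0.42, adjusted p = 0.00694). Oas2, an enzyme that senses double-stranded RNA, went from 6.35 and 6.08 to 9.29 and 8.30 (2.58 ± 0.38, adjusted p = 0.0158), and Oasl2, of the same family, rose by 2.22 ± 0.34 (adjusted p = 0.0188). Ddx58, the RNA sensor RIG-I, which stands outside the list, went from 6.31 and 5.93 to 9.74 and 9.38 (3.45 ± 0.40, adjusted p = 0.0062). These calls leaned on single arrays: the list's count was 1 without CDP array 1, 0 without CDP array 2, 1 without pre-CD8 array 1 and 3 without pre-CD8 array 2, and Rtp4 and Ddx58 lost theirs without CDP array 2 (0.0732 and 0.0605). Irf7, the master factor of type I interferon induction, did not pass (1.51, adjusted p = 0.113; 0.0018 with the set block).

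Guanylate-binding proteins, interferon-induced GTPases that attack intracellular pathogens, gave 4 risers of 7 measured and a median of 1.85. Gbp4 read 6.30 and 6.46 in CDP and 9.62 and 10.5 in pre-CD8 (3.69 ± 0.31, 12.9-fold, adjusted p = 0.00169), and Gbp8 read 5.48 and 6.49 against 8.65 and 9.67 (3.18 ± 0.40, adjusted p = 0.00829). Gbp9 (1.85) and Gbp11 (2.00) also passed, and Gbp3 (-0.13) and Gbp5 (0.39) had an adjusted p of 1. The count fell to 2 without CDP array 2 or pre-CD8 array 2. The Ifi200 family of DNA sensors split. Of 9 measured, Ifi206 rose from 5.22 and 4.87 to 8.01 and 7.88 (2.90 ± 0.18, adjusted p = 0.00074) and Ifi213 rose by 1.95 ± 0.27 (adjusted p = 0.0123), whereas Ifi209 fell by 1.69 ± 0.22 from 11.0 and 10.8 to 9.10 and 9.32 (adjusted p = 0.0093) and Ifi207 fell by 1.82 ± 0.35 (adjusted p = 0.0484). Ifi206 kept its call without each array; Ifi213, Ifi209 and Ifi207 did not, with adjusted p up to 0.0941, 0.0819 and 0.315 without single Id2-GFP- arrays.

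Genes of antigen presentation by MHC class II rose in part. Of 8 measured, 4 rose and none fell, with a median of 1.40. H2-Ob, the beta chain of the peptide-loading inhibitor H2-O, read 8.81 and 8.78 in CDP and 11.5 and 11.4 in pre-CD8 (2.67 ± 0.20, adjusted p = 0.00126). Cd74, the invariant chain, read 5.40 and 6.09 against 8.16 and 8.85 (2.76 ± 0.32, adjusted p = 0.00638), and H2-Aa, a class II alpha chain, read 6.29 and 6.34 against 8.88 and 9.04 (2.65 ± 0.28, adjusted p = 0.00406). H2-Ab1, its beta chain partner, rose by 1.51 ± 0.22 (adjusted p = 0.0143) and lost its call without each Id2-GFP- array (up to 0.127). Ciita, the class II transactivator, did not pass (0.61, adjusted p = 0.756). None of 13 MHC class I pathway genes passed, with a median of -0.03, and with the set block 4 rose and 1 fell. B2m, the class I light chain, read 12.4 and 12.3 against 12.7 and 12.7 (0.42 ± 0.12, adjusted p = 0.195, and 0.00109 with the set block).

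Among growth factor and cytokine receptors, 2 of 22 rose and 1 fell, with a median of -0.13, and with the set block 5 rose and 9 fell. Il7r and Il18r1, a chain of the interleukin-18 receptor, were the risers; Il18r1 read 5.24 and 5.07 in CDP and 7.73 and 8.53 in pre-CD8 (2.98 ± 0.43, adjusted p = 0.0149, lost without either CDP array or pre-CD8 array 2, up to 0.121). Csf1r was the faller. The feedback inhibitors of cytokine signalling gave 2 risers among 14 SOCS and STAT genes, both known as STAT5 targets. Socs2 had the smallest p of the named genes, with 5.42 and 5.62 in CDP against 9.08 and 9.14 in pre-CD8 (3.59 ± 0.16, 12.1-fold, adjusted p = 0.000174). Cish read 6.22 and 6.29 against 7.96 and 7.42 (1.44 ± 0.21, adjusted p = 0.0161) and lost its call without either CDP array or pre-CD8 array 1 (up to 0.12). Stat5a (-0.11) and Stat5b (-0.04) had an adjusted p of 1.

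Receptors that guide migration changed in both directions, with 2 risers and 3 fallers among 17, and 5 and 4 with the set block. Ccr9, the receptor for the thymic and intestinal chemokine CCL25, read 4.99 and 4.84 in CDP and 8.15 and 8.71 in pre-CD8 (3.51 ± 0.31, adjusted p = 0.0017). Ccr2, by which monocytes leave the marrow, read 9.49 and 9.61 in CDP and 6.97 and 6.98 in pre-CD8 and fell by 2.58 ± 0.20 (adjusted p = 0.00126). Cx3cr1, the fractalkine receptor of monocytes and progenitors, fell by 1.97 ± 0.17 from 10.8 and 10.9 to 8.83 and 8.95 (adjusted p = 0.0017). These 3 genes kept their call without each array. Gpr183, an oxysterol receptor that positions lymphocytes and dendritic cells, fell by 2.37 ± 0.27 (adjusted p = 0.00545; 0.0587 without CDP array 2). Itga4, the alpha chain of VLA-4, rose by 1.17 ± 0.18 (adjusted p = 0.0193, up to 0.136 without CDP array 2 or either pre-CD8 array), and among integrins Itga1, a collagen-binding chain, fell by 1.56 ± 0.18 (adjusted p = 0.0068, up to 0.0788 without CDP array 2 or pre-CD8 array 2). P2ry14, the receptor for UDP-glucose on progenitors, rose from 6.31 and 6.15 to 10.5 and 10.3 (4.15 ± 0.36, adjusted p = 0.0017).

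Genes of early haematopoietic progenitors gave 3 risers of 23 and no faller, with a median of 0.70; 20 of 23 were higher in both pairs, and with the set block 15 rose. Mycn, the Myc family member of immature progenitors, read 5.31 and 5.00 in CDP and 8.81 and 7.98 in pre-CD8 (3.24 ± 0.27, 9.43-fold, adjusted p = 0.00169). It was the single riser of 11 Myc family genes; Myc itself read 11.9 and 10.8 against 12.2 and 11.5, with overlapping groups (adjusted p = 1; 0.0263 with the set block). Gfi1b, a repressor of stem and erythroid cells, rose by 2.03 ± 0.33 (adjusted p = 0.0237). Hoxa5, of the homeobox cluster used by progenitors, rose by 1.18 ± 0.23 (adjusted p = 0.0492) as 1 of 10 Hoxa genes, and Hoxa9 was just outside, at 8.02 and 7.88 against 9.80 and 9.12 (1.51 ± 0.31, adjusted p = 0.0578; 6.14e-05 with the set block). Mycn alone of the 3 risers kept its call without either CDP array; Gfi1b went up to 0.162 and Hoxa5 up to 0.277 without single arrays. Cd34, a surface marker of progenitors, had overlapping groups (0.43 ± 0.31, adjusted p = 1).

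The genes with the largest drops included those of monocytes. Of 17 monocyte and macrophage genes, 9 fell and none rose, with a median of -1.37; 16 were lower in both pairs, against 34.4% of all genes, and with the set block 14 fell. F13a1, the coagulation factor XIII A chain of monocytes, read 11.6 and 11.0 in CDP and 8.31 and 7.03 in pre-CD8 and fell by 3.63 ± 0.47 (12.4-fold, adjusted p = 0.0103; 0.0765 without CDP array 1). Ms4a6c, a tetraspan protein of myeloid cells, fell by 1.91 ± 0.14 from 12.2 and 12.1 to 10.2 and 10.4 (adjusted p = 0.00117). The other fallers were Ccr2, Cx3cr1, Csf1r, Ms4a6b (-1.37), Ms4a4c (-1.96), Fn1 (-2.13), which encodes fibronectin, and Cd14 (-1.03), the lipopolysaccharide coreceptor. The count was 6, 4, 5 and 6 without CDP arrays 1 and 2 and pre-CD8 arrays 1 and 2. The summed intensity of the 17 genes was 16811 to 17810 in Id2-GFP- CDP and 5336 to 5625 in Id2-GFP- pre-CD8, with no member at 0, beside 16184 to 17757 in Id2-GFP+ pre-CD8. The part of monocytes among the sorted CDP in these differences was not tested.

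Some receptors of the innate myeloid kind fell too. Of 18 C-type lectin receptors 3 fell (Clec7a, Clec9a and Clec10a) and none rose, with a median of -0.21. With the set block 7 fell and 2 rose. Clec7a, the beta-glucan receptor dectin-1, read 8.58 and 8.36 in CDP and 6.01 and 5.30 in pre-CD8 and fell by 2.82 ± 0.27 (adjusted p = 0.00254). Clec10a, a galactose lectin of type 2 conventional dendritic cells, fell by 1.61 ± 0.22 (adjusted p = 0.0128). The list had 1 faller without CDP array 2, namely Clec7a, and 2 without either pre-CD8 array. Among Fc receptors Fcer1g, the common gamma chain, fell by 1.34 ± 0.23 (adjusted p = 0.0302) and Fcgr2b, the inhibitory receptor for immunoglobulin G, fell by 1.54 ± 0.30 (adjusted p = 0.0484), while Fcrl1, a B lineage receptor, rose from 6.72 and 6.43 to 8.80 and 8.85 (2.26 ± 0.23, adjusted p = 0.00352). Fcrl1 kept its call without each array, whereas Fcer1g and Fcgr2b went up to 0.255 and 0.307. Of 17 toll-like receptors and adaptors 1 rose and 1 fell, and with the set block 1 rose and 7 fell. Tlr7, a sensor of single-stranded RNA, rose from 6.98 and 6.55 to 9.57 and 9.17 (2.60 ± 0.36, adjusted p = 0.0128). Tlr1, which senses lipopeptides with Tlr2, fell by 2.12 ± 0.29 from 7.55 and 7.94 to 5.40 and 5.84 (adjusted p = 0.0128). Neither call held without CDP array 1, CDP array 2 or pre-CD8 array 1 (up to 0.117 and 0.119).

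Met, the hepatocyte growth factor receptor, read 10.0 and 9.43 in CDP and 7.39 and 6.20 in pre-CD8 and fell by 2.93 ± 0.43 (adjusted p = 0.0157). Ifi30, the thiol reductase of antigen processing, fell by 2.26 ± 0.37 (adjusted p = 0.0258) and Mefv, which encodes pyrin, fell by 2.62 ± 0.37 (adjusted p = 0.0143). Upk1b, a uroplakin, fell by 2.83 ± 0.40 (adjusted p = 0.0133), Abca9, a lipid transporter, fell by 2.82 ± 0.37 (adjusted p = 0.0103) and Igsf6 fell by 2.76 ± 0.41 (adjusted p = 0.0161). None of these 6 kept its call without every single array, with adjusted p up to 0.0753 to 0.119. Depdc7, at 8.05 and 7.72 against 5.57 and 5.45, Apba1, an adaptor of vesicle traffic, at 8.47 and 8.70 against 6.19 and 6.36, and Fkbp1b, a binding protein of calcium release channels, at 7.63 and 8.37 against 5.61 and 5.43, did keep it, with differences of -2.37, -2.31 and -2.48.

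Genes of myeloid granules passed in 1 case. Of 10 primary granule genes, which are made at the promyelocyte stage, Prtn3 fell by 2.20 ± 0.38 from 12.9 and 12.4 to 11.0 and 9.86 (adjusted p = 0.0325, up to 0.212 without either CDP array, pre-CD8 array 2 or either Id2-GFP+ pre-CD8 array). The list's median was -0.60, and with the set block 6 fell and 1 rose. None of 14 secondary granule genes passed, with a median of 0.77, and with the set block 7 rose and 1 fell. Their summed intensity was 2580 to 5117 in Id2-GFP- CDP and 6599 to 7696 in Id2-GFP- pre-CD8, far below the 40210 to 73837 of the Id2-GFP+ arrays. Camp, the cathelicidin of neutrophil granules, read 9.59 and 8.72 against 10.1 and 10.4 (adjusted p = 0.129; 0.00352 with the set block), beside 12.98 to 13.58 on the 4 Id2-GFP+ arrays. No gene of the basophil, mast cell and eosinophil list (13) or of the erythroid and megakaryocyte list (13) passed, and with the set block 2 of each rose.

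Genes of mitosis were lower in Id2-GFP- pre-CD8 cells throughout. All 35 G2 and M phase genes measured had a negative difference in both array pairs, with a median of -1.12. Of these 10 passed, and with the replicate block 1 did, where 47 of all genes fell. With the set block all 35 fell, beside 6.65% of all genes. Prc1, which bundles the central spindle, read 8.16 and 8.10 in CDP and 6.54 and 6.62 in pre-CD8 and fell by 1.55 ± 0.20 (adjusted p = 0.00971). Birc5, the chromosomal passenger survivin, read 10.9 and 10.8 against 9.69 and 9.30 (fell by 1.36 ± 0.21, adjusted p = 0.0188), and Nuf2, of the kinetochore, fell by 1.41 ± 0.20 (adjusted p = 0.0135). In these genes the CDP arrays differed from each other by less than 0.1 while the stages differed by more than 1 unit. They were named for a small p, which favours arrays that lie close. Hmmr, named by the same rule, read 9.30 and 9.14 in CDP and 7.95 and 7.62 in pre-CD8. The calls without the block were fragile: 0 remained without CDP array 1, CDP array 2 or pre-CD8 array 2, 1 without pre-CD8 array 1 and 6 without any 1 of the Id2-GFP+ arrays. The 29 S phase genes had a median of -0.58, and 28 were lower in both pairs. None passed without a block or with the replicate block, and 23 fell with the set block. Rrm2, a ribonucleotide reductase subunit, read 10.5 and 10.3 against 9.56 and 8.70 (-1.31 ± 0.30, adjusted p = 0.0899; 0.000171 with the set block).

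Of 17 D cyclin, kinase and inhibitor genes, 2 fell, and with the set block 6 fell and 1 rose. Ccnd1, cyclin D1, read 10.3 and 10.5 in CDP and 9.22 and 8.58 in pre-CD8 and fell by 1.49 ± 0.24 (adjusted p = 0.0256), and Cdkn2c, the kinase inhibitor p18, fell by 1.46 ± 0.22 (adjusted p = 0.0188). Both calls were lost without CDP array 1, CDP array 2 or pre-CD8 array 2. Ribosome biogenesis genes had a median of -0.06 and oxidative phosphorylation genes -0.25, with no call in 26 and 29 genes. With the set block 2 and 9 of them fell. In cholesterol synthesis Fdps, the farnesyl diphosphate synthase, was the single faller of 17, at 9.91 and 10.0 against 8.67 and 8.75 (fell by 1.26 ± 0.18, adjusted p = 0.0154, up to 0.173 without single Id2-GFP- arrays).

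**Figure D4:**
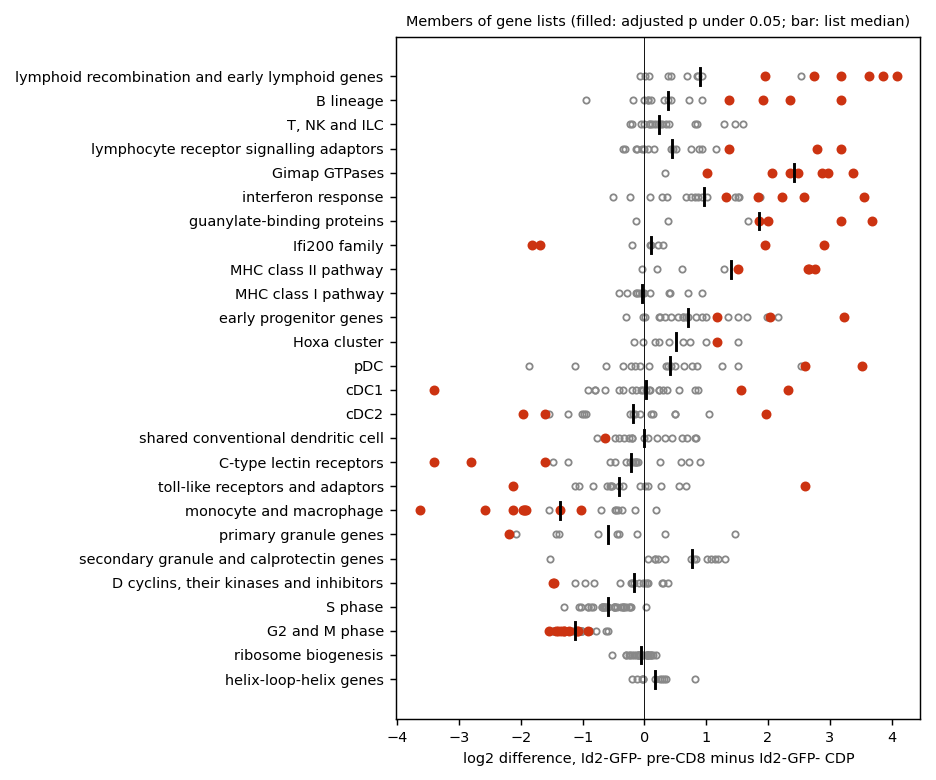
Log2 difference of Id2-GFP- pre-CD8 minus Id2-GFP- CDP for the members of 26 gene lists, 1 point per gene, filled where the adjusted p was under 0.05, with a bar at the list's median. The Gimap list (median 2.42) stood to the right of 0, and the monocyte (median -1.37) and G2 and M phase (median -1.12) lists stood to the left.

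The transcription factors of the dendritic cell lineage were called in part, and only with the set block. Of 33 measured none was called without it, with a median of 0.09, and with the set block 6 rose and 6 fell. Zeb2, a repressor of the cDC1 fate that sits above Id2, read 10.2 and 9.70 against 9.25 and 8.84 (-0.91 ± 0.41, adjusted p = 0.576; 0.0039 with the set block). Nfil3, an inducer of cDC1 specification, read 9.04 and 9.86 against 9.59 and 10.8 with overlapping groups (0.74 ± 0.49, adjusted p = 0.954; 0.0133 with the set block). Irf4, of type 2 conventional and plasmacytoid cells, was nearest, at 5.26 and 5.50 against 6.25 and 6.60 (1.05 ± 0.22, adjusted p = 0.0678; 0.000551 with the set block). Spi1, the myeloid factor PU.1, read 10.4 and 10.3 against 9.61 and 9.25 (-0.90 ± 0.25, adjusted p = 0.16; 0.00027 with the set block), and Klf4, of monocytes and type 2 cells, read 6.98 and 8.46 against 5.98 and 6.36 (-1.55 ± 0.42, adjusted p = 0.161; 0.00864 with the set block). Of 13 Kruppel-like factors Klf3 rose, from 6.34 and 6.59 to 8.71 and 8.96 (2.37 ± 0.26, adjusted p = 0.00525), and it kept its call without each array.

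A list of 11 genes of the helix-loop-helix network, made of E proteins (Tcf3, Tcf4 and Tcf12), Id proteins (Id1 to Id4), Tal1, Lyl1 and their partners Lmo2 and Cbfa2t3, had no call with or without the set block. Tcf3, which encodes the E2A proteins, read 9.38 and 9.11 against 9.20 and 9.05 (-0.12 ± 0.23), and Tcf4, which encodes E2-2 of plasmacytoid dendritic cells, read 10.4 and 10.5 against 10.8 and 10.8 (0.36 ± 0.20, adjusted p = 0.793). Id1 (-0.20) and Id3 (0.17), the related inhibitors, were at 4.97 to 5.97 on all 4 arrays. The groups overlapped for Tcf3, Id1, Id2 and Id3, and for Tcf4 both pre-CD8 arrays were slightly above both CDP arrays.

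Plasmacytoid dendritic cell genes gave 2 risers of 20, Ccr9 and Tlr7, with a median of 0.41, and with the set block 7 rose and 3 fell. Siglech, a surface marker of that lineage, had overlapping groups at 8.20 and 9.50 against 8.53 and 10.4. Of 23 cDC1 genes, Clnk, a signalling adaptor, rose from 6.54 and 6.76 to 8.98 and 8.95 (2.32 ± 0.20, adjusted p = 0.00169), Gcsam, a lymphoid signalling protein, rose by 1.56 ± 0.29 (adjusted p = 0.0388) and Clec9a fell, with a median of 0.03. In this list 5 rose and 5 fell with the set block. Clnk kept its call without each array and Gcsam went up to 0.261. Xcr1, the chemokine receptor of mature cDC1, stayed low at 4.61 to 5.20 with overlapping groups. Of 17 cDC2 genes Il1r2, a decoy receptor, rose (1.97 ± 0.33, adjusted p = 0.0294) and Cx3cr1 and Clec10a fell, and with the set block 3 rose and 7 fell. Of 17 genes shared by conventional dendritic cells Cst3, the protease inhibitor cystatin C, fell by 0.64 ± 0.11 (adjusted p = 0.0335). There 3 rose and 2 fell with the set block. Il1r2 and Cst3 lost their call without single arrays, with adjusted p up to 0.233 and 0.273. Cd84, a receptor of the SLAM family, was the single riser of its 11 genes (1.59 ± 0.23, adjusted p = 0.0143, up to 0.141 without single Id2-GFP- arrays).

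The same stage step was then read on the 4 Id2-GFP+ arrays, whose genotype entry did not differ by stage. No gene passed there (0%), with 643 at an unadjusted p under 0.05, and with the set block 194 rose (0.973%) and 220 fell (1.1%). Of the 206 risers of Id2-GFP- cells, 142 had a difference above 0 in Id2-GFP+ cells, with a median of 0.15, where 47.64% of all genes were above 0. Of the 118 fallers 70 were below 0, with a median of -0.04. All genes had a median of -0.009 there and 47.64% lay above 0, so a difference below 0 was common among all genes too. With the set block 52 genes rose in both reporter classes, which is 4.48% of the risers in Id2-GFP- cells and 26.8% of those in Id2-GFP+ cells, and 85 fell in both (6.42% and 38.6%); 17 rose in Id2-GFP- and fell in Id2-GFP+ cells and 18 did the reverse.

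MHC class II genes and several monocyte genes went the same way in both classes. Cd74 read 9.99 and 10.3 in Id2-GFP+ CDP and 12.1 and 12.5 in Id2-GFP+ pre-CD8 (2.16 ± 0.32), beside 2.76 in Id2-GFP- cells. H2-Ab1 differed by 1.92 ± 0.22 beside 1.51, and Csf1r by -2.33 ± 0.23 beside -1.94, each with an adjusted p of 0.0577 in Id2-GFP+ cells. F13a1 went from 9.68 and 10.7 to 7.16 and 7.16 (-3.03 ± 0.47, adjusted p = 0.14) beside -3.63. With the set block each of the 4 passed in Id2-GFP+ cells (adjusted p from 5.06e-05 to 0.00166). The test of the difference between the classes gave an adjusted p of 1 for each, and 0.23 to 0.428 with the block, which does not show that the steps were equal. Other members differed in size between the classes. By the same test with the block, H2-Ob (2.67 beside 1.09) and H2-Aa (2.65 beside 1.62) passed (adjusted p = 0.000436 and 0.0399). With the block it called 2 of 8 class II genes as higher and 2 as lower, and 9 of 17 monocyte genes as lower. Over all genes these shares were 3.4% and 4.09%.

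The test of the difference itself, the stage difference of Id2-GFP- cells minus that of Id2-GFP+ cells, called 22 genes as higher (0.11%) and 7 as lower (0.0351%), with 1227 at an unadjusted p under 0.05. With the set block it called 677 (3.4%) and 815 (4.09%). Reporter class and the genotype entry, which changed with stage only in Id2-GFP- cells, cannot be told apart in this test. All 22 rose in Id2-GFP- cells and 6 of the 7 fell there; the other was Clec4b1, a C-type lectin, with -0.56 in Id2-GFP- and 2.04 in Id2-GFP+ cells. The clearest were Rag2, which read 4.96 and 4.95 in Id2-GFP+ CDP and 4.53 and 4.60 in Id2-GFP+ pre-CD8, and Socs2, at 5.79 and 5.73 against 5.95 and 5.94. Their stage differences exceeded those of Id2-GFP+ cells by 3.13 ± 0.20 and 3.41 ± 0.23 (adjusted p = 0.00363 for both), and of the 29 genes these 2 kept the call without each array in turn (adjusted p up to 0.0492 and 0.0497).

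Other lymphoid genes also passed this test. Rag1 read 5.16 and 5.08 in Id2-GFP+ CDP and 4.84 and 5.42 in Id2-GFP+ pre-CD8 (difference between the classes 4.07 ± 0.45, adjusted p = 0.021), and Il7r read 5.72 and 6.41 against 6.35 and 6.49 (3.28 ± 0.37, adjusted p = 0.0222). Lat (3.03), Gimap6 (3.04), Bank1 (2.84) and Cd72 (2.34) were called as well. In the other direction Clec9a read 9.01 and 9.52 in Id2-GFP+ CDP and 9.78 and 10.6 in Id2-GFP+ pre-CD8, opposite to its course in Id2-GFP- cells (difference between the classes -4.31 ± 0.56, adjusted p = 0.0397). Ccr2 read 10.6 and 10.2 against 11.1 and 11.1 (-3.22 ± 0.28, adjusted p = 0.0135). Depdc7 (-2.36), Apba1 (-2.27) and Ms4a6c (-1.87) passed with the same sign. For the mitotic genes the median difference between the classes was -1.13; none of the 35 passed without the block, and 33 did with it. Without single arrays the counts of this test were 2 to 14 higher and 0 to 1 lower, so its call for every gene named here other than Rag2 and Socs2 ended without at least 1 array.

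**Figure D5:**
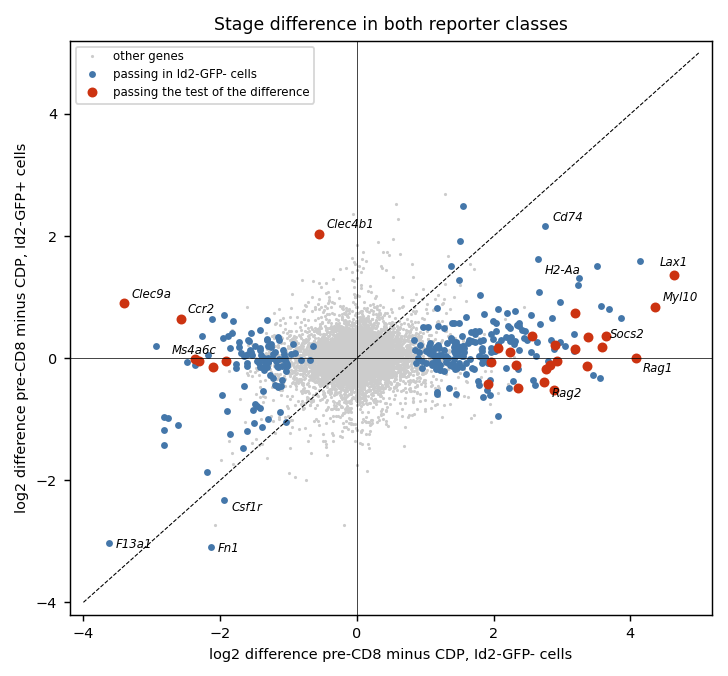
Log2 difference pre-CD8 minus CDP of each of 19938 genes in Id2-GFP- cells (x axis) against the same difference in Id2-GFP+ cells (y axis), with genes called in Id2-GFP- cells and genes that passed the test of the difference in colour. Rag1 (4.08 and 0.01), Rag2 (2.74 and -0.39) and Socs2 (3.59 and 0.18) lay near the horizontal axis, Clec9a (-3.41 and 0.90) lay at the upper left, and Cd74 (2.76 and 2.16) and F13a1 (-3.63 and -3.03) lay nearer the diagonal.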

How the data were processed

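The authors deposited intensity values on a linear scale, produced by RMA in Affymetrix Expression Console per the submitters' processing notes; tool versions and the probe annotation's build are not given in the sources used here. RMA already corrects background and equalises the arrays, and it compresses low signals, so differences of dim genes can be understated. Of 28853 probe sets, 21789 carried 1 gene symbol, 1621 several and 5443 none. The 1-symbol probe sets gave 19938 genes; for 999 genes with several, the one with the highest mean over 8 arrays was kept.

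Log2 values were fitted with limma 3.58.1 in R 4.3.3, with 4 group means over 8 arrays and eBayes with a trend (4 residual and 4.19 prior degrees of freedom), two-sided, with Benjamini-Hochberg adjustment. Scripts were tested on simulated data. Alternatives were an array set block, a replicate block, quantile normalization, genes of mean log2 under 6 in every group left out, probe sets averaged, no trend, the Id2-GFP- arrays alone and each array left out. Where 1 array remained in a group, it was assumed to vary like the others.

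Named genes were Id2 and Zbtb46, the 15 largest risers and 15 largest fallers (predicted genes, small RNAs, receptor families of smell and antigen receptor segments left out), up to 4 called members of each of 42 lists with the smallest p, up to 2 where none was called, 10 genes by the size of the difference between reporter classes, and a fixed set of factors. Further members are named in a clause after their values were seen. The genes, lists and comparison were chosen with earlier results of these data known. The number of arrays limits the precision.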

Additional observations from a re-analysis of the deposited data

Results flagged for a closer look

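For 10 genes the stage difference of Id2-GFP- cells differed from that of Id2-GFP+ cells by limma's test of the difference, on the log2 scale and with adjusted p under 0.05. Of these, 8 had the larger difference in Id2-GFP- cells: Rag1 by 4.07, Myl10 by 3.52, Cmah by 3.50, Socs2 by 3.41, Il7r by 3.28, Lax1 by 3.27, Rag2 by 3.13 and Gimap6 by 3.04. Clec9a (-4.31) and Ccr2 (-3.22) had the lower difference in Id2-GFP- cells. They are the 10 with the largest such difference among the 29 genes that passed. Since the genotype entry changed with stage only in Id2-GFP- cells, it cannot be told apart from reporter class here.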

How the results depend on the processing

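With 2 arrays a group, each call leans on a spread shared over 4 groups, and the genotype entry and the stage cannot be told apart. The array set block gave 1161 risers and 1325 fallers in Id2-GFP- cells, 194 and 220 in Id2-GFP+ cells, and 677 higher and 815 lower in the test of the difference between the classes. Quantile normalization gave 401 and 435, 15 and 8, and 85 and 73, and 314 of the 324 genes called in Id2-GFP- cells stayed called with the same sign in all 324. Leaving out dim genes gave 181 fallers in Id2-GFP- cells, 7 and 3 in Id2-GFP+ cells, and 49 higher and 25 lower in the difference; 11860 genes were then tested. The Id2-GFP- arrays alone gave 67 fallers, and no trend gave 12 lower in the difference. Leaving out 1 array gave 66 to 211 risers and 11 to 115 fallers in Id2-GFP- cells and 2 to 14 higher and 0 to 1 lower in the difference; in Id2-GFP+ cells it gave 0 risers and 0 to 1 faller, the 1 without Id2-GFP+ CDP replicate 1. Of 131 named genes, 97 kept their side of the threshold with the set block and 34 passed only with it. The cause of these shifts was not tested.

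The replicate block gave 110 risers and 47 fallers in Id2-GFP- cells, and 5 higher and 1 lower in the difference. Replicate numbers did not pair the arrays over all groups: deviations of same-numbered arrays correlated at 0.713 and 0.69 within a reporter class and at -0.685 to -0.626 between classes. Of the named genes, 22 lost their call under this block. Among risers these were Gfi1b, Hoxa5, Blk, Oas2, Gbp11, Il1r2, Cish and Itga4. Among fallers they were Met, Igsf6, Ifi30, Prtn3, Ifi207, Cst3, Nuf2, Birc5, Hmmr, Cdkn2c, Ccnd1, Fdps, Fcer1g and Fcgr2b.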

Other observations

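Several called genes outside the lists encode receptors and secreted signals; they were chosen after their values were seen, and each but Tyrobp kept its limma call without each of the 8 arrays. Sema3d, a secreted semaphorin, read 4.42 and 4.41 in Id2-GFP- CDP and 7.63 and 7.59 in Id2-GFP- pre-CD8 (3.20 ± 0.15, adjusted p = 0.000174). Sstr2, a somatostatin receptor, went from 6.75 and 6.33 to 9.48 and 9.45 (2.93 ± 0.28, adjusted p = 0.00259). Gabbr1, a subunit of the GABA-B receptor, went from 6.53 and 6.92 to 9.23 and 9.14, and Lpar1, a receptor for lysophosphatidic acid, from 5.94 and 5.78 to 7.69 and 7.93. As in every called gene, no CDP array of these 4 genes reached a pre-CD8 array. Ltb, the lymphotoxin beta chain of lymphoid cells, rose by 2.04 ± 0.21 (adjusted p = 0.00396) and Il17re, a chain of the interleukin-17C receptor, by 2.24 ± 0.20 (adjusted p = 0.0017). Among fallers Nrp1, a receptor for semaphorins and vascular growth factor, went from 9.55 and 9.35 to 7.44 and 7.09 and fell by 2.18 ± 0.22 (adjusted p = 0.00377). Tifab, an inhibitor of innate signalling, fell by 2.10 ± 0.18 (adjusted p = 0.00169). Tyrobp, the myeloid adaptor DAP12, fell by 1.30 ± 0.17 (adjusted p = 0.0106).

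The array also carries probe sets for the hairpins of the miR-181 family, small RNAs known from lymphoid development. The 5p mature forms of miR-181a and miR-181b, from RefSeq with build GRCm38.p6, are shown because they share the seed (bases 2 to 8, in capitals), which the 5p forms of miR-181c and miR-181d also have and the 3p forms do not.
mmu-miR-181a-5p: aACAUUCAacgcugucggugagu
mmu-miR-181b-5p: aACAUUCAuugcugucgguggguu
The probe set for Mir181b-2 (mature strand at chr2:38853845-38853868) read 5.62 and 5.82 in Id2-GFP- CDP and 6.96 and 7.38 in Id2-GFP- pre-CD8, a rise of 1.45 ± 0.23 (adjusted p = 0.021; 0.0652 with the replicate block). Mir181a-2, its neighbour, read 4.88 and 4.71 against 5.35 and 5.30 and did not pass (0.53 ± 0.14, adjusted p = 0.158; 0.0168 with the array set block). Mir181a-1 (0.17), Mir181b-1 (0.34), Mir181c (0.29) and Mir181d (-0.04) had an adjusted p of 1, so 1 of 6 probe sets passed. A probe set for a hairpin reads the precursor transcript and says nothing of the mature form.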
